A study of Mus musculus with 8 samples.

Results

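The mitochondrial chromosome of the mouse carries 37 annotated genes: 13 encode proteins, 2 encode ribosomal RNAs and 22 encode transfer RNAs. All of them, taken by their position on the mitochondrial chromosome (symbols that begin with mt-), are described here, 37 of the 42256 genes in the count table. RNA was sequenced from kidneys of 8 adult male mice, 4 labelled CDH11+/+ and 4 labelled CDH11-/-. Their background was mixed, 129S1/Sv x C57BL/6. Every mouse had received aristolochic acid, a plant toxin that damages the proximal tubule, at 3 mg/kg each day for 5 days, and was killed 2 weeks after the last injection. The comparison asks whether loss of cadherin-11, an adhesion protein of mesenchymal cells, accompanies different RNA levels in the injured kidney. There were no uninjured mice, so the level of these transcripts before injury was not analysed here. The title of the series names Unx/AngII, another injury, and the labels were followed. How the Cdh11 allele was made is not stated in the sources used here.

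Mitochondrial DNA is a small circle that both strands transcribe into long precursors. Transfer RNAs lie between most of the other genes, and their excision frees the ribosomal RNAs and messenger RNAs. The messenger RNAs encode core subunits of respiratory complexes I, III and IV and of the ATP synthase, complex V, while every protein that copies, transcribes, processes or translates the circle comes from nuclear genes. Proximal tubule cells, the cells that take up filtered solutes, are densely packed with mitochondria and depend on oxidative phosphorylation, so kidney RNA is rich in these transcripts.

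Libraries held 10675309 to 18539479 counts. The labels were first checked with Cdh11 (GRCm38, chr8:102632095-102785642, minus strand). It stood at 75.6, 58.0, 61.7 and 59.0 CPM, here a count relative to the TMM-scaled library size, in the libraries labelled CDH11+/+, replicates 1 to 4. In those labelled CDH11-/- it was 89.9, 91.3, 112.5 and 117.2 CPM. All 4 libraries labelled CDH11-/- were thus higher, which goes against a label of a knockout, by a log2 difference of 0.69 ± 0.11 (SE, n = 4 against 4, edgeR adjusted p = 0.0243). With single libraries left out the log2 difference ran from 0.64 to 0.80, and the adjusted p was 0.0525 to 0.112 without any one of CDH11+/+ replicates 2, 3 or 4 or CDH11-/- replicates 3 or 4. With limma on the authors' normalized values it was 0.26 and not called. Where the counted reads lie relative to any deleted part is not stated in the sources used here. Groups are therefore named by their labels throughout.

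The transcripts fell into 3 classes in these libraries. The 13 protein-coding genes gave 94.9% to 95.9% of the counts assigned to the mitochondrial chromosome, the ribosomal RNA genes gave the remainder, and the 22 transfer RNA genes had 0 counts in all 8 libraries. A count of 0 allows a level of up to 0.162 to 0.281 CPM in a library, on library totals without TMM factors. This takes 3 counts as the limit and covers counting error only. The transfer RNA genes are 59 to 75 bases long. The shortest, mt-Ts2, encodes a serine transfer RNA that lacks the usual D arm, and the longest, mt-Tl1, encodes a leucine transfer RNA and joins the genes mt-Rnr2 and mt-Nd1 with no base between them. They are shown as the shortest and the longest of the genes at 0, mt-Ts2 from chrM:11613-11671 and mt-Tl1 from chrM:2676-2750, both on the plus strand of GRCm38.
mt-Ts2: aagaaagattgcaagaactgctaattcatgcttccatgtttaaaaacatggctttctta
mt-Tl1: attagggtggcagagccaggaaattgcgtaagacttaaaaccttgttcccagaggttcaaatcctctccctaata
Short genes had few counts across the table as well. Of 1259 genes whose longest transcript has at most 80 bases, 20 had any count, 55 counts in all over the 8 libraries. Among nuclear RNAs made by RNA polymerase III, the shortest had the fewest counts in total: 6 for Rny1 and 3 for Rny3, of 112 and 102 bases, beside 47 for Rmrp, 120 for Rpph1, 325 for Rn7sk, 795 for Rn7s1 and 1348 for Rn7s2, of 271 to 331 bases. The long nuclear RNA Malat1 had 585909 counts, but Terc, a nuclear RNA of 423 bases, had 0, so counts did not follow length throughout. Whether polyadenylated RNA was selected or ribosomal RNA was removed is not stated in the sources used here, so the levels of the transfer and ribosomal RNAs describe these libraries and not the tissue.

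Of the 37 genes, 28 are read from the plus strand of the reference, which corresponds to transcription of the heavy strand template, and 9 from the other strand: mt-Nd6 and 8 transfer RNA genes. Base composition separates mt-Nd6 from the other messenger RNAs. Guanine makes up 28.1% of its bases and 5.9% to 16.1% in the other 12. Start and stop signals were not uniform either. The first codon was ATG in 9 genes, and was GTG in mt-Nd1, ATA in mt-Nd2, ATT in mt-Nd3 and ATC in mt-Nd5. Stop codons were TAA in 8 genes and TAG in 2, and mt-Co3, mt-Nd4 and mt-Cytb end with a lone T, a form that polyadenylation completes to a stop codon.

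Neighbouring messenger RNAs overlap in 3 places by more than a base, and reads that fall within an overlap cannot be given to one gene alone. The last 43 bases of mt-Atp8 are the first 43 of mt-Atp6, a pair known to be kept on one messenger RNA. The last 7 bases of mt-Nd4l are likewise the first of mt-Nd4. mt-Nd6 ends within mt-Nd5 on the opposite strand, by 14 bases. The genes mt-Atp8 (chrM:7766-7969, plus strand) and mt-Nd4l (chrM:9877-10173, plus strand) are shown whole and the last 60 bases of mt-Nd6 (chrM:13552-13611, minus strand) are shown to mark these overlaps, in capitals.
mt-Atp8: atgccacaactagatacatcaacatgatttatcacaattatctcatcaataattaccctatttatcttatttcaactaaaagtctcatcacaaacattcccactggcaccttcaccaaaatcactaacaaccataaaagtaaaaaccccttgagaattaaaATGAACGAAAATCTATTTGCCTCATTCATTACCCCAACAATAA
mt-Nd4l: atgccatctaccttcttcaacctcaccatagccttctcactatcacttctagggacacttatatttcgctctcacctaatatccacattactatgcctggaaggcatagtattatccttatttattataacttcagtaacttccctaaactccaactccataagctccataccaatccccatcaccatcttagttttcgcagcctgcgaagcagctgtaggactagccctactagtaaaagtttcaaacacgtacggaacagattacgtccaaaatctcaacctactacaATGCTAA
mt-Nd6: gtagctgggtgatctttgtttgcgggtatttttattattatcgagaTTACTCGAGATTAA
The libraries were made with a kit that keeps strand, but whether the counting used it is not stated in the sources used here. Reads of mt-Nd6 and reads of precursor RNA from the opposite strand may therefore not have been told apart.

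A copy of part of the mitochondrial chromosome lies on chromosome 1, and its annotated gene models match 7 of the 13 protein-coding genes. The annotation lists 7 gene models there, from base 24611535 to base 24616197 on the minus strand (GRCm38). This stretch of 4663 bases keeps the mitochondrial gene order from mt-Co1 to mt-Nd4. No model was matched to mt-Atp8, which lies between mt-Co2 and mt-Atp6 on the mitochondrial chromosome. Sequence between the models was not searched, so whether it holds mt-Atp8 was not tested. Aligned to the mitochondrial genes, 5 of the models had no mismatch: Gm28661 to mt-Co2 over 681 bases, Gm10925 to mt-Atp6 over 678, Gm28437 to mt-Co3 over 783, Gm10222 to mt-Nd4l over 294 and Gm28439 to mt-Nd4 over 876. The last of these covers 63.6% of mt-Nd4. The other 2 had 1 mismatch each. Gm28438 differs from mt-Nd3 by T3C, with the mitochondrial base first and positions counted from the first base of the gene. Gm29216, which matches the last 31.3% of mt-Co1, differs by A1066T. These single bases, in capitals, are the only differences within the aligned parts of the models. Bases outside the alignments were not compared. The stretches shown are chrM:9459-9491 and chr1:24613087-24613119 for the first pair, and chrM:6390-6423 and chr1:24616155-24616188 for the second, on the plus strand of the mitochondrial chromosome and the minus strand of chromosome 1.
mt-Nd3: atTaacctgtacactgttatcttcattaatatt
Gm28438: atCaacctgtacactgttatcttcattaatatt
mt-Co1: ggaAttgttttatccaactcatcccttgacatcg
Gm29216: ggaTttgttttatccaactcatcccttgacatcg

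The counts were divided between each mitochondrial gene and its chromosome 1 copy, with a coefficient of variation of the copy's share over the 8 libraries from 2.30% for mt-Co2 to 16.4% for mt-Nd4. For mt-Co3, which encodes a subunit of complex IV, the copy Gm28437 held 47.6, 47.4, 46.4 and 46.6% of what the pair received in the libraries labelled CDH11+/+ and 42.6, 45.95, 45.9 and 45.6% in libraries of the CDH11-/- label. These ranges do not overlap, a description of 1 of the 7 pairs for which no test was made. The share given to the copy over the 8 libraries averaged 44.0% ± 1.75 (SD) for mt-Atp6, 40.8% ± 3.58 for mt-Nd4l, 39.2% ± 0.90 for mt-Co2 and 38.8% ± 1.89 for mt-Nd3. It was lower for the genes that the array copies in part, 7.28% ± 0.992 for mt-Co1 and 5.85% ± 0.959 for mt-Nd4. For the mt-Nd4l pair the share ran from 34.7% in CDH11-/- replicate 4 to 47.7% in CDH11+/+ replicate 4. Levels of these 7 genes and of their copies are uncertain for this reason, and sums of gene and copy are given beside them. No listed model was matched to mt-Atp8, so no such sum was made for it. Another 3 listed copies on chromosome 2 and 5 listed elsewhere match at 90% identity or more. Each of these took at most 0.306% of the counts of its pair. The list was not drawn from every chromosome, so it may not hold every such copy.

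**Figure D1:**
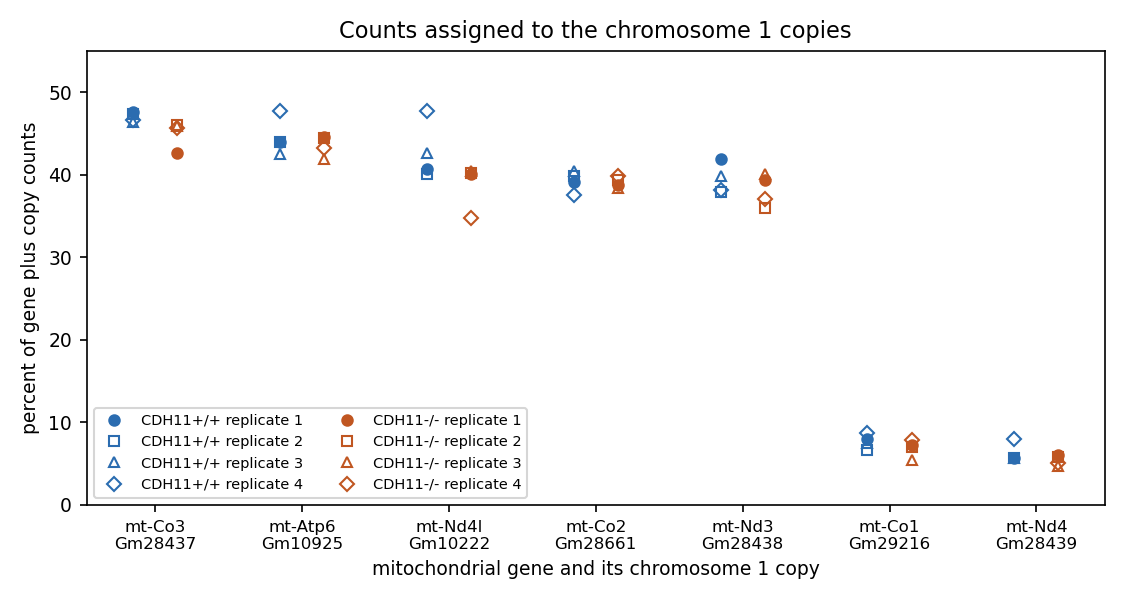
Percent of the counts of a mitochondrial gene and its chromosome 1 copy that were assigned to the copy (vertical axis, from 0), one point for each of the 8 libraries, coloured by labelled genotype. The 5 genes copied nearly whole lie between 34.7% and 47.7%, and mt-Co1 and mt-Nd4, copied in part, between 4.77% and 8.66%.

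Mitochondrial genes took a similar share of the counts in both labelled genotypes. The share was 5.52, 7.84, 7.15 and 6.71% in the libraries labelled CDH11+/+, replicates 1 to 4, and 5.50, 7.66, 6.44 and 7.01% in libraries of the CDH11-/- label. Replicate 1 was the lowest and replicate 2 the highest in each group, although the numbers follow the order of deposit and pair nothing. The groups overlapped almost entirely, at 6.80% ± 0.976 (SD, n = 4) and 6.65% ± 0.918 (SD, n = 4), and differed by -0.15 percentage points, less than either spread. The highest library exceeded the lowest 1.43-fold, while the Wilson 95% interval of a library reached at most 0.014 points to either side, far narrower than the spread between libraries. Without CDH11+/+ replicate 1 the difference was -0.58 points, and without CDH11-/- replicate 1 it was 0.23 points. With the counts of the listed nuclear copies added the share was 8.21% ± 1.15 against 7.97% ± 1.12 (SD, n = 4 each). The chromosome 1 copies alone held 1.40% ± 0.179 against 1.31% ± 0.209.

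By complex, the shares also overlapped in every case. The 3 genes of complex IV, cytochrome c oxidase, held 3.07% ± 0.415 of all counts under the CDH11+/+ label and 3.02% ± 0.390 in libraries of the CDH11-/- label (SD, n = 4 each). The 7 genes of complex I, NADH dehydrogenase, held 2.07% ± 0.316 against 2.01% ± 0.302. mt-Cytb, the mitochondrial subunit of complex III, held 0.843% ± 0.140 against 0.825% ± 0.106. The ATP synthase genes mt-Atp6 and mt-Atp8 held 0.504% ± 0.0787 against 0.497% ± 0.0748, and the ribosomal RNAs 0.324% ± 0.0333 against 0.300% ± 0.0574. Of the 10 most abundant genes of these libraries, 6 were mitochondrial.

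Within the messenger RNAs of the mitochondrial chromosome the proportions were nearly constant. mt-Co1, the catalytic subunit of complex IV, made up 31.5% ± 0.593 of their counts under the CDH11+/+ label and 31.7% ± 0.383 in libraries of the CDH11-/- label (SD, n = 4 each). mt-Cytb made up 12.98% ± 0.279 against 13.01% ± 0.332, and mt-Nd4 9.63% ± 0.246 against 9.63% ± 0.164. Every one of the 13 proportions overlapped between the groups. Over the 8 libraries the coefficient of variation of these proportions was 1.52% for mt-Co1 and 2.01% for mt-Nd4, and was widest for mt-Nd6 at 15.1% and mt-Nd4l at 10.6%. Messenger RNA counts exceeded ribosomal RNA counts 20.7-fold on average over the 8 libraries, with a range of 18.5 to 23.2.

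Divided by gene length, levels spanned from mt-Co1 at the top to mt-Nd6 at the bottom. As counted, mt-Co1 reached 13100 ± 1646 CPM per kilobase (mean and SD of 8 libraries, on library totals without TMM factors). mt-Co2 followed at 8348 ± 1014, mt-Cytb at 7292 ± 1009, mt-Atp6 at 6630 ± 924, mt-Co3 at 5727 ± 710 and mt-Nd1 at 5639 ± 822. The order from mt-Co1 down to mt-Co3 held in all 8 libraries, although from mt-Co2 on the ranges of neighbours overlapped. mt-Co3 and mt-Nd1 could not be ordered, since mt-Co3 was the higher in 4 of the 8. Other complex I messengers lay lower, mt-Nd4 at 4485 ± 601, mt-Nd2 at 3975 ± 619, mt-Nd5 at 2102 ± 287, mt-Nd3 at 1421 ± 253 and mt-Nd4l at 1121 ± 203. mt-Atp8 reached 2389 ± 430, above mt-Nd5 in 7 of 8 libraries. The ribosomal RNAs lay near the bottom, with mt-Rnr2, the large one, at 1292 ± 184 and mt-Rnr1, the small one, at 1124 ± 174. mt-Rnr1 and mt-Nd4l could not be ordered, as mt-Rnr1 was the higher in 2 of 8 libraries though its mean was above. mt-Nd6, the light strand gene, reached 31.0 ± 7.66 and was the lowest in every library.

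Adding the counts of the copies changed this order. mt-Co2 then stood at 13750 ± 1731 CPM per kilobase and mt-Co1 at 14140 ± 1744, and mt-Co1 was then the higher in 6 of 8 libraries where it had been in all 8. mt-Atp6, at 11840 ± 1629, and mt-Co3, at 10620 ± 1418, passed mt-Cytb. The listed copy of mt-Cytb, on chromosome 4, had 0 counts, and mt-Cytb stayed at 7292. The ratio of mt-Co2 to mt-Co1 per length went from 0.638 ± 0.0293 to 0.973 ± 0.0313 (SD over 8 libraries). That of mt-Atp6 to mt-Atp8, whose messages overlap, went from 2.80 ± 0.220 to 5.00 ± 0.340. In that ratio copy counts were added to mt-Atp6 alone, as no listed copy was matched to mt-Atp8. For mt-Nd4 over mt-Nd4l the ratio went the other way, from 4.05 ± 0.478 to 2.53 ± 0.181. mt-Nd3 and mt-Nd4l reached 2315 ± 369 and 1888 ± 294, both then above the ribosomal RNAs in all 8 libraries. Ratios that involve genes without an abundant listed copy do not carry the doubt from the listed copies. Doubt from copies outside the list was not tested. mt-Cytb exceeded mt-Nd6 per length 242 ± 34.2-fold, mt-Nd5 exceeded it 69.9 ± 11.0-fold, and mt-Rnr1 stood at 0.870 ± 0.0378 of mt-Rnr2.

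**Figure D2:**
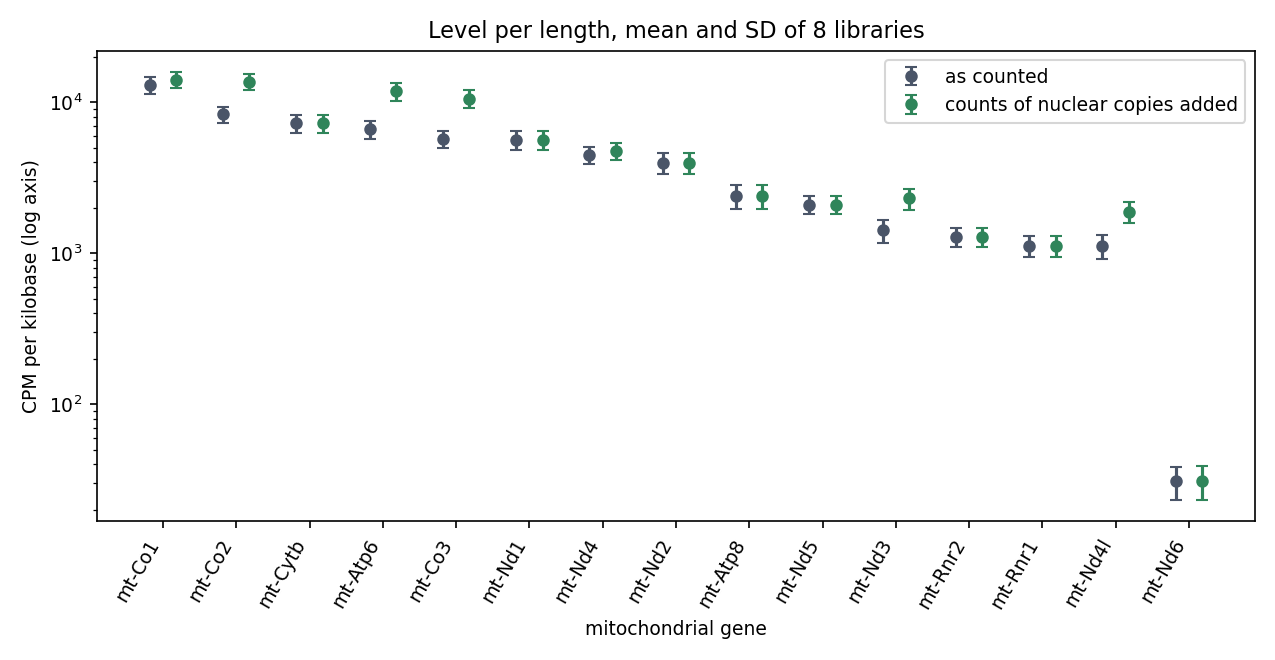
Level per length of the 15 mitochondrial genes with counts (CPM per kilobase, log axis), as mean and SD of 8 libraries, before and after the counts of nuclear copies were added. As counted mt-Co2 stands at 8348 and mt-Co1 at 13100; with the copies added they stand at 13750 and 14140, and mt-Nd6 stays near 31.0.

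No difference between the labelled genotypes was detected for any of the 15 mitochondrial genes with counts. All 15 passed the filter on low counts, and 0 passed an adjusted p of 0.05 in edgeR, where 0.719% of the 15852 genes tested did (0.372% higher and 0.347% lower in libraries labelled CDH11-/-). Their adjusted p ran from 0.617 to 0.96, and 0 of 15 had an unadjusted p under 0.05, against 14.1% of all genes tested. DESeq2 and limma-voom with quality weights also called 0 of them, beside 3.37% and 4.32% of all genes. The libraries of the groups overlapped for every one of the 15, while for 7.33% of all genes they did not. All 15 fitted log2 differences (labelled CDH11-/- minus labelled CDH11+/+) were below 0, as were 52.2% of all genes, with a median of -0.08 beside -0.01 over all genes tested. With scaling by library size alone mt-Nd4l and mt-Nd5 turned positive, and on the authors' normalized values mt-Nd4l did. These genes are read from shared precursors in the same libraries, so 15 equal signs are not 15 independent observations, and the median was 0.01 without CDH11+/+ replicate 2 and -0.19 without CDH11+/+ replicate 1. The 95% intervals bound what the comparison could have missed: apart from mt-Nd6, the lowest bound was -0.60 and the highest 0.40 on the log2 scale. The 7 chromosome 1 copies had adjusted p of 0.459 to 0.801 in edgeR.

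Among the genes of complex IV, mt-Co1 had the most counts of any gene here, with 16540, 25010, 21340 and 20310 CPM in the libraries labelled CDH11+/+ and 16130, 23220, 19410 and 20600 CPM in libraries of the CDH11-/- label. The lowest and the second highest values both came from libraries labelled CDH11-/-. Its log2 difference was -0.07 ± 0.15 (SE, 95% interval -0.39 to 0.26, edgeR adjusted p = 0.877). mt-Co2, which carries the site that receives electrons from cytochrome c, had 4607, 6750, 6063 and 6269 CPM against 4616, 6411, 5198 and 5953 CPM. mt-Co3, a core subunit that holds no metal centre, had 3664, 5387, 4911 and 4471 CPM against 3718, 5135, 3994 and 4781 CPM. In both genes the values of the groups lay across each other, with log2 differences of -0.10 ± 0.14 and -0.06 ± 0.14.

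mt-Cytb, the heme-bearing core of complex III, had 6518, 10490, 9118 and 8358 CPM in the libraries labelled CDH11+/+ and 6795, 9703, 7863 and 8195 CPM in libraries of the CDH11-/- label. Both the lowest and the highest value came from a library labelled CDH11+/+, and the log2 difference was -0.08 ± 0.15 (SE, 95% interval -0.41 to 0.25, edgeR adjusted p = 0.849). Of the ATP synthase subunits, mt-Atp6 forms the proton channel and had 3644, 5629, 4882 and 4375 CPM against 3507, 5185, 4273 and 4779 CPM. mt-Atp8, a small membrane subunit, had 390.2, 638.9, 557.3 and 486.7 CPM against 371.2, 586.1, 388.5 and 502.0 CPM. CDH11+/+ replicate 1 and CDH11-/- replicates 1 and 3 were the lowest for both. Their log2 differences were -0.06 ± 0.15 and -0.17 ± 0.19, with adjusted p of 0.891 and 0.747 in edgeR.

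The complex I messengers encode the membrane arm of NADH dehydrogenase, in which mt-Nd2, mt-Nd4 and mt-Nd5 resemble proton antiporters and mt-Nd1 lies next to the quinone site. mt-Nd1 had 4219, 6621, 6067 and 5680 CPM in the libraries labelled CDH11+/+ and 4127, 6221, 4977 and 5462 CPM in libraries of the CDH11-/- label. mt-Nd2 had 3349, 5120, 4790 and 4060 CPM against 3115, 4917, 3700 and 4115 CPM. For both, replicate 1 of each label lay lowest and the replicate numbered 2 highest. mt-Nd4 had 4875, 7539, 6954 and 6160 CPM against 4912, 7082, 5938 and 6193 CPM, and mt-Nd5 had 3123, 4681, 3971 and 3788 CPM against 3029, 4660, 3718 and 3824 CPM. These 4 genes gave log2 differences of -0.12 ± 0.15, -0.13 ± 0.16, -0.08 ± 0.15 and -0.03 ± 0.15 in the order named.

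Among the short complex I genes the groups also overlapped. mt-Nd3, which forms a loop near the quinone site, had 379.3, 636.3, 557.3 and 450.9 CPM in the libraries labelled CDH11+/+ and 366.6, 599.8, 461.5 and 522.5 CPM in libraries of the CDH11-/- label. mt-Nd4l, a small membrane subunit, had 278.1, 436.2, 372.0 and 264.9 CPM against 264.1, 373.8, 293.8 and 390.8 CPM. CDH11+/+ replicate 4 was low for mt-Nd4l and not for most other mitochondrial genes, and in that library 47.7% of the counts of the pair had gone to the copy. With copies added, mt-Nd4l still made up 0.639% of mitochondrial messenger RNA counts there, beside 0.687% to 0.767% in the other libraries. The part of the copy in the low value was not tested. mt-Nd6, the only messenger of the light strand, had 10.3, 19.3, 19.8 and 18.9 CPM against 11.6, 21.9, 12.99 and 14.7 CPM. One library labelled CDH11+/+ lay low and one labelled CDH11-/- lay high, which gave the widest interval of the 15 genes, -0.74 to 0.41 around a log2 difference of -0.16 (SE 0.25, edgeR adjusted p = 0.817).

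The ribosomal RNAs form the core of the mitochondrial ribosome, and neither was called. mt-Rnr1 (12S) had 957.0, 1316, 1170 and 1163 CPM in the libraries labelled CDH11+/+ and 742.0, 1094, 943.5 and 1242 CPM in libraries of the CDH11-/- label. mt-Rnr2 (16S) had 1778, 2410, 2112 and 2313 CPM against 1453, 2218, 1844 and 2290 CPM. CDH11-/- replicate 4 was among the higher libraries for both, and replicates 1 and 3 of that label among the lower. The log2 difference was -0.20 ± 0.15 for mt-Rnr1 (SE, 95% interval -0.54 to 0.14, edgeR adjusted p = 0.617) and -0.14 ± 0.15 for mt-Rnr2 (adjusted p = 0.719). The value for mt-Rnr1 was the farthest from 0 of the 15 genes and had the lowest unadjusted p, 0.228.

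**Figure D3:**
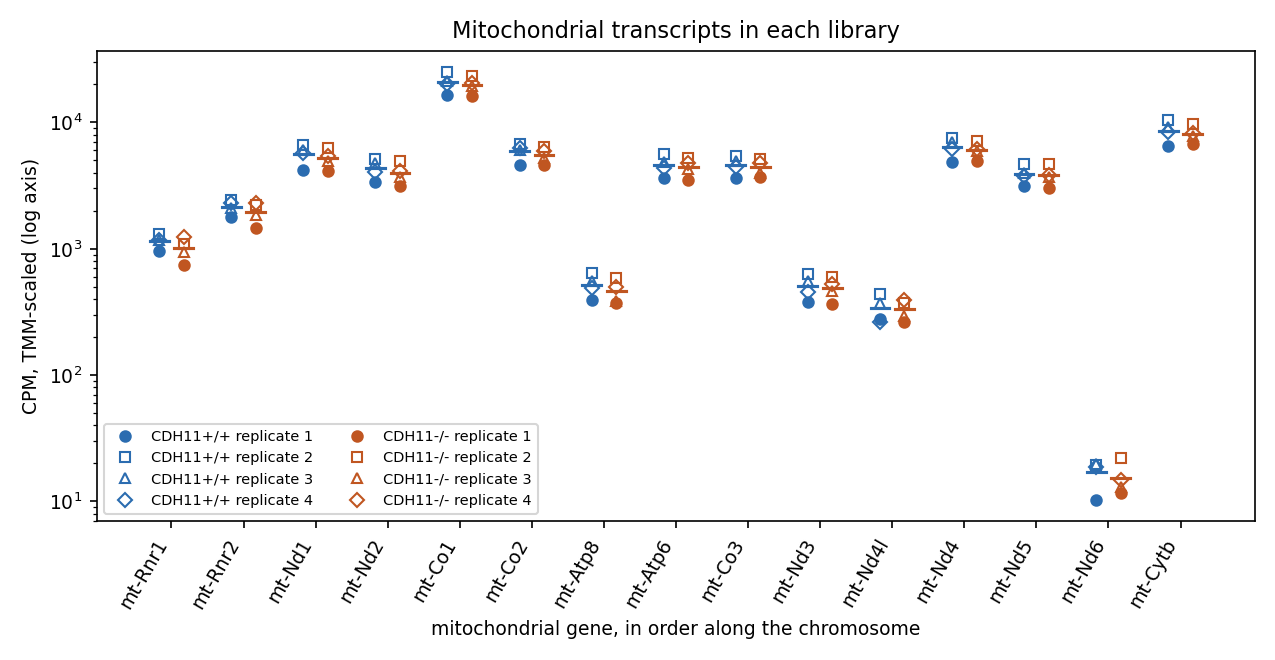
TMM-scaled CPM (log axis) of the 15 mitochondrial genes with counts in each of the 8 libraries, in their order along the chromosome, with a bar at the mean of each labelled group of 4. The groups overlap for every gene, and replicate 1 of either label lies lowest for most; mt-Nd6 runs from 10.3 to 21.9 CPM, mt-Co1 from 16130 to 25010 CPM.

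**Figure D4:**
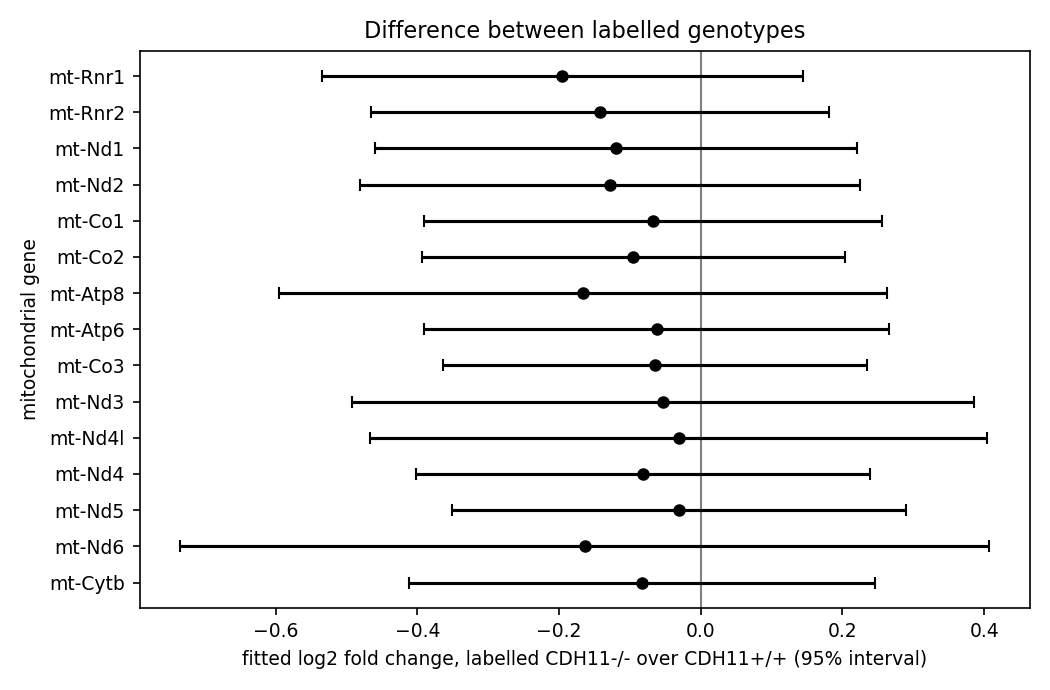
Fitted log2 difference of each mitochondrial gene, labelled CDH11-/- over labelled CDH11+/+, with its 95% interval from edgeR (n = 4 against 4). Points run from -0.20 for mt-Rnr1 to -0.03 for mt-Nd5, and every interval spans 0.

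Levels differed more between libraries of one label than between the labels. The coefficient of variation over the 8 libraries ran from 14.4% to 26.7% for the 15 mitochondrial genes, while its median was 7.61% for the 2133 genes at 100 CPM or more. The highest value was that of mt-Nd6, whose mean of 16.2 CPM is below that cutoff, and the next was 20.5% for mt-Atp8. The genes moved as a block. In CDH11+/+ replicate 2 and replicate 3 and in CDH11-/- replicate 2, 15 of 15 lay above their own mean over the 8 libraries, and in CDH11+/+ replicate 1 and in CDH11-/- replicates 1 and 3, 0 of 15 did. CDH11+/+ replicate 2 was the highest library for 14 of the 15 genes, and CDH11-/- replicate 1 the lowest for 10 and CDH11+/+ replicate 1 for 5. The median log2 deviation of the 15 genes from their means was -0.30, 0.31, 0.14 and 0.01 in the libraries labelled CDH11+/+, replicates 1 to 4, and -0.35, 0.21, -0.13 and 0.06 in libraries of the CDH11-/- label.

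Nuclear genes were set beside these deviations. For 73 nuclear subunits of complexes I, III, IV and V the medians were -0.21, 0.21, 0.23 and 0.08 in the libraries labelled CDH11+/+ and -0.06, 0.11, -0.15 and -0.20 in libraries of the CDH11-/- label. The sign was that of the mitochondrial genes in all libraries but CDH11-/- replicate 4, where the mitochondrial genes stood at 0.06 and the nuclear subunits at -0.20. For 24 markers of the proximal tubule the medians were -0.19, 0.82, 0.41 and 0.39 against -0.42, -0.13, -0.27 and -0.80. In CDH11-/- replicate 2 the mitochondrial genes were thus above their mean while the markers were below. CDH11-/- replicate 4 had the lowest proximal tubule markers of the 8 libraries, and 13 of the 15 mitochondrial genes there were above their means.

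**Figure D5:**
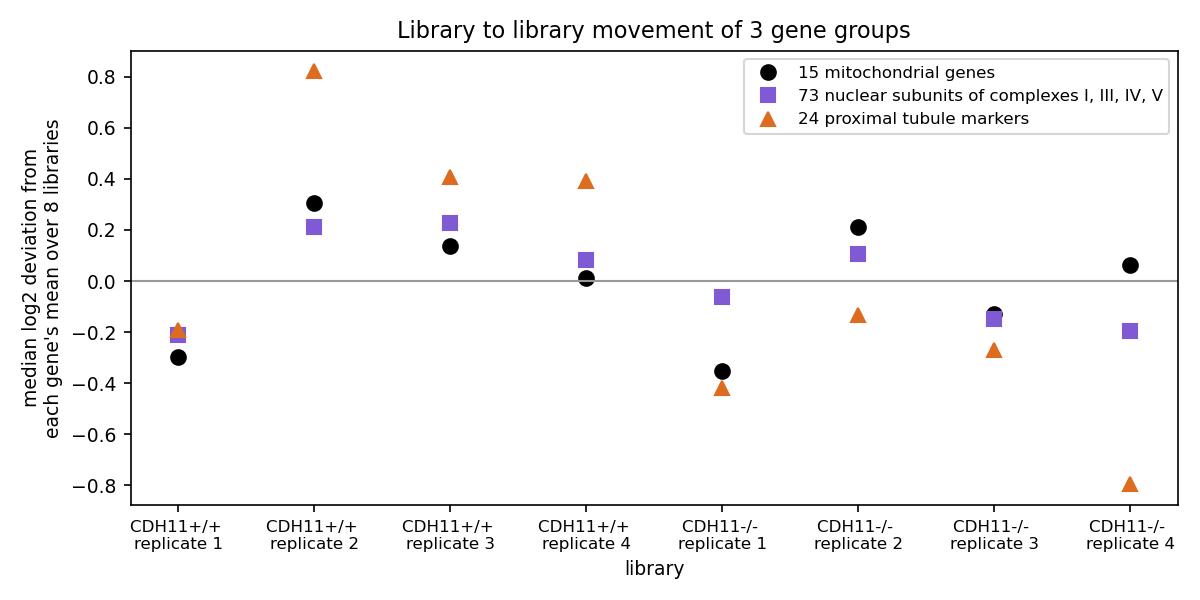
Median log2 deviation from each gene's mean over the 8 libraries (vertical axis), by library, for the 15 mitochondrial genes, 73 nuclear subunits of respiratory complexes and 24 proximal tubule markers. In CDH11+/+ replicate 2 all 3 groups lie above 0; in CDH11-/- replicate 4 the mitochondrial genes lie at 0.06, the nuclear subunits at -0.20 and the markers at -0.80.

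The proximal tubule markers had lower fitted levels in the libraries labelled CDH11-/-. All 24 had a log2 difference below 0, with a median of -0.74. edgeR called 0 of them, 17 had an unadjusted p under 0.05, and DESeq2 called 13 and limma-voom 11. The shares of all genes tested were 0.719%, 14.1%, 3.37% and 4.32% in the same order. The markers were measured in the same libraries, so 24 equal signs are not 24 independent observations. The summed level of these 24 markers ran from 5666 to 13030 CPM in the libraries labelled CDH11+/+ and from 4538 to 9515 CPM in the others. All sums of markers in this paragraph are on library totals without TMM factors. In whole tissue, fewer cells of a type and less RNA per cell cannot be told apart. Markers of the thick ascending limb, another segment rich in mitochondria, summed to 1949 to 3539 CPM against 1900 to 3471 CPM, with 6 of 7 below 0 and a median of -0.15. For the distal convoluted tubule 4 of 4 markers lay below 0 (median -0.45, summed 1063 to 2058 CPM against 1156 to 1475 CPM), and for the collecting duct 5 of 8 (median -0.07). For endothelium, stroma and immune cells 9 of 10 lay above 0 (median 0.23, summed 1121 to 1599 CPM against 1280 to 1714 CPM). In these 4 lists edgeR called 0 genes. An unadjusted p under 0.05 was found for 0 of 7, 1 of 4, 1 of 8 and 3 of 10 in the order given. Among all genes tested the share was 14.1%. DESeq2 called 2 and limma-voom 3, all of the last list, beside 3.37% and 4.32% of all genes. Of the tissues that a kidney dissection can carry along, fat markers summed to 44.3 to 105.5 CPM over the 8 libraries, erythrocyte markers to 63.9 to 97.2 CPM, and adrenal markers to 1.58 to 3.71 CPM with Cyp11b2 at 0 in every library. The part of cell makeup in the level of the mitochondrial transcripts was not tested.

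The nuclear genes that serve the mitochondrial chromosome gave no call in the same fit. Over 12 lists, none of the 322 tested members passed an adjusted p of 0.05 in edgeR, while DESeq2 called 1 of them and limma-voom 4. Of all genes tested these tools called 0.719%, 3.37% and 4.32%. At an unadjusted p under 0.05, the counts were 2 of 29 genes of mitochondrial DNA replication, packaging and transcription, 1 of 35 of RNA processing and polyadenylation, 1 of 34 transfer RNA synthetases and modifiers, 1 of 30 translation and assembly factors and 7 of 77 mitochondrial ribosomal proteins. None of these shares exceeds the 14.1% found among all genes. The median log2 difference was -0.06, -0.07, -0.04, -0.10 and -0.09 in the same order, beside -0.01 over all genes tested.

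Named regulators of the mitochondrial chromosome were near even. Tfam, which packages mitochondrial DNA and starts its transcription, had 34.3, 37.6, 47.3 and 43.5 CPM in the libraries labelled CDH11+/+ and 40.0, 39.5, 36.5 and 34.2 CPM in libraries of the CDH11-/- label, a log2 difference of -0.12 ± 0.10 (edgeR adjusted p = 0.659). Polrmt, the mitochondrial RNA polymerase, gave -0.05 ± 0.09 (adjusted p = 0.848), and 0.30 with limma on the authors' normalized values. Lrpprc, which stabilizes mitochondrial messenger RNAs, gave -0.16 ± 0.09 (adjusted p = 0.48), and Ppargc1a, a coactivator of mitochondrial biogenesis, 0.14 ± 0.11 (adjusted p = 0.626). The signs of the first 3 were negative and that of Ppargc1a positive, and none exceeded the spread between libraries by this test.

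The genes of smallest p in those lists showed groups that were further apart without passing the threshold. Twnk, the helicase of mitochondrial DNA, had 27.9, 25.7, 32.9 and 27.5 CPM in the libraries labelled CDH11+/+ and 24.6, 24.2, 22.96 and 22.5 CPM in libraries of the CDH11-/- label. Top1mt, the mitochondrial topoisomerase, had 26.6, 30.9, 29.0 and 27.1 CPM against 23.4, 25.9, 22.75 and 22.95 CPM. For both, every library labelled CDH11-/- lay below every library labelled CDH11+/+, with log2 differences of -0.27 ± 0.09 and -0.26 ± 0.08 (edgeR adjusted p of 0.197 and 0.185). Tbrg4, a protein of mitochondrial RNA maturation, also did not overlap between groups, at -0.23 ± 0.07 (adjusted p = 0.141). These genes were picked by p from the same data. In the lists above, in order, 2 of 29, 1 of 35, 1 of 34, 0 of 30 and 0 of 77 genes did not overlap. Among all genes tested the share was 7.33%. Mrpl28, of the large mitochondrial ribosomal subunit, had 43.4, 54.6, 47.9 and 54.8 CPM against 40.7, 44.0, 40.3 and 37.95 CPM, groups that just overlapped (-0.30 ± 0.09, adjusted p = 0.148). Lars2, the mitochondrial leucyl transfer RNA synthetase, had the largest fitted difference of these genes, -1.12 ± 0.53 (adjusted p = 0.406), which came with 706.7 CPM in CDH11+/+ replicate 4 beside 177.8 to 221.5 CPM in the others of that label. Without that library it was -0.38 (adjusted p = 0.458).

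Fitted differences of the nuclear respiratory subunits lay mostly below 0. All 36 tested subunits of complex I had a log2 difference below 0, with a median of -0.14, as did all 4 of complex II (-0.21), all 9 of complex III (-0.18) and all 11 of complex IV (-0.15), and 16 of 17 of complex V (-0.18). Among all genes tested 52.2% had a difference below 0, with a median of -0.01. An unadjusted p under 0.05 was found for 3 of 36, 0 of 4, 2 of 9, 1 of 11 and 2 of 17 of them in the same order, beside 14.1% of all genes. These subunits were measured in the same libraries, so their equal signs are not independent observations. The mitochondrial partners had medians of -0.08 for complex I, -0.08 for complex III, -0.07 for complex IV and -0.11 for complex V. The difference between nuclear and mitochondrial subunits was not tested. Ndufs1, the largest subunit of complex I, had 105.8, 153.5, 151.8 and 136.6 CPM in the libraries labelled CDH11+/+ and 108.2, 123.0, 110.9 and 96.3 CPM in libraries of the CDH11-/- label (-0.32 ± 0.12, edgeR adjusted p = 0.256). Uqcr10 of complex III had 131.5, 181.4, 177.2 and 174.5 CPM against 141.3, 151.8, 129.3 and 115.7 CPM (-0.30 ± 0.11, adjusted p = 0.257). Ndufs1 and Uqcr10 were picked by p from the same data. In both genes CDH11+/+ replicate 1 lay among the libraries of the other label.

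Among 18 regulators of mitochondrial biogenesis, 5 had an unadjusted p under 0.05 and 3 did not overlap between groups, beside 14.1% and 7.33% of all genes tested. Ppara, a nuclear receptor that drives fatty acid oxidation in the proximal tubule, had 17.99, 17.2, 15.98 and 18.5 CPM in the libraries labelled CDH11+/+ and 8.87, 11.6, 14.3 and 9.62 CPM in libraries of the CDH11-/- label. Every library labelled CDH11-/- was lower, by a log2 difference of -0.64 ± 0.14, just outside the threshold in edgeR (adjusted p = 0.0735; 0.0061 to 0.216 over the alternatives). Esrrg, an orphan receptor that supports mitochondrial genes, had 39.3, 59.8, 51.8 and 47.9 CPM against 38.6, 39.8, 39.1 and 36.7 CPM (-0.37 ± 0.11, adjusted p = 0.158; 0.00968 to 0.642 over the alternatives). Ppara and Esrrg were picked by p from the same data. The proximal tubule markers also had fitted differences below 0, and the part of these markers in the values of Ppara and Esrrg was not tested. Of 23 genes of mitophagy and mitochondrial quality control, 19 had a negative difference and 4 an unadjusted p under 0.05, beside 52.2% and 14.1% of all genes, with a median of -0.12.

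These counts for nuclear genes rest on CDH11+/+ replicate 1. That library stood apart within its label. The chi-square per gene was 26.9, 24.7 and 15.6 in its pairs with replicates 2, 3 and 4. Pairs among the others of its label had 8.37 to 9.42, and pairs of the CDH11-/- label 7.01 to 19.7. In the fit without CDH11+/+ replicate 1, 22 of the 322 nuclear genes of the lists passed the threshold in edgeR. That share, 6.83%, was near the 6.25% of all genes called in that fit (1004 of 16065). All 22 were lower in the libraries labelled CDH11-/-, as were 3.17% of all genes in that fit. They were 5 mitochondrial ribosomal proteins, 3 biogenesis regulators, 3 of quality control, 3 of complex I, 1 of complex II, 2 of complex III, 2 of complex IV and 3 of complex V. The same fit called 0 of the 15 mitochondrial genes, at a median log2 difference of -0.19. Leaving out any other single library gave 0 or 1 nuclear call.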

How the data were processed

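RNA was measured in 8 mouse kidneys, grouped by labelled genotype. No replicate number, litter or batch appears in the labels, so replicate numbers follow the order of deposit. The authors deposited whole-number counts per Ensembl gene and a second table of normalized values, a signal made from the counts with factors that vary from gene to gene. Per the submitters' processing notes DRAGEN, DESeq2 and the build mm10 were used; versions, the counting rule and the use of strand are not stated in the sources used here. Mitochondrial genes had factors at most 5.86% from their library's median. There were 0 columns of other samples.

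All 42256 identifiers matched the GENCODE M21 annotation of GRCm38, the source of names, positions and transcript sequences. Nuclear copies were sought with BLAST 2.17.0 at 90% identity over at least 100 bases. The list of copies was not drawn from every chromosome. Copies outside it were neither counted nor added. At 10675309 to 18539479 counts a library, abundant genes carry little counting error and the spread between mice sets the precision. Wilson intervals and limits for a count of 0 cover counting error only.

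Labelled genotypes were compared by edgeR's quasi-likelihood test (edgeR 4.0.16, R 4.3.3) with no other term, TMM scaling, robust moderation and filterByExpr, which kept 15852 genes. Benjamini-Hochberg adjustment ran over all of these, with calls at 0.05, and the procedure was tested on simulated data. The 18 alternatives were other scalings (DESeq2 size factors, library size, TMM without mitochondrial genes), no filter, at least 1 CPM in 4 libraries, the tools DESeq2 1.42.0 and limma-voom (limma 3.58.1, quality weights), moderation that is not robust, limma on the authors' normalized values (log2, pseudocount 1), counts of copies added, and each library left out. Adding copies to shares and to levels per length was chosen after seeing the data, as was naming mt-Ts2 and mt-Tl1. Genes named by rule are Cdh11, every mitochondrial gene with counts, Tfam, Polrmt, Lrpprc, Ppargc1a and the 2 genes of smallest p in each nuclear list, of which the text gives some. The members and lists were chosen with earlier results of these data known. Shares, proportions and lists were given no p.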

Additional observations from a re-analysis of the deposited data

Results flagged for a closer look

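Within a group of 4 libraries, 11 values of 158 sets of 4 lay further from the other 3 than the Dixon criterion at 95% allows, and chance alone gives about 1 such set in 20. Many of the 158 sets share counts, so they are not independent.

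CDH11+/+ replicate 1 was low for mt-Nd6, at 10.3 CPM beside 18.9 to 19.8 CPM in the others of its label, and hence for the share of counts in light strand genes, 0.00105% beside 0.00183% to 0.00194%. It was also low for Uqcr10, 131.5 CPM beside 174.5 to 181.4 CPM. Among libraries labelled CDH11-/-, replicate 2 was high for mt-Nd6 within the mitochondrial messenger RNA counts (0.0296% beside 0.0216% to 0.0228%) and for Polrmt (42.3 CPM beside 33.3 to 34.3 CPM).

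CDH11+/+ replicate 4 stood apart in 4 values. Lars2 reached 706.7 CPM there, beside 177.8 to 221.5 CPM. mt-Nd4l made up 0.410% of mitochondrial messenger RNA counts, beside 0.535% to 0.552%. The percent of pair counts assigned to a copy was 7.97% for Gm28439, the copy of mt-Nd4 (5.65% to 5.73% in the others), and 0.188% for Gm13340, a chromosome 2 copy of mt-Co1 (0.113% to 0.119%).

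The other 2 were also shares assigned to chromosome 1 copies. CDH11-/- replicate 4 gave 34.7% of the mt-Nd4l pair to Gm10222, beside 40.0% to 40.5%, and CDH11-/- replicate 1 gave 42.6% of the mt-Co3 pair to Gm28437, beside 45.6% to 45.95%.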

How the results depend on the processing

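No mitochondrial gene was called under any of the 18 alternatives, and the differences in share stayed within the spread between libraries in all 12 settings tried for them. The cause of each change given next was not tested. The count of all genes called, 114, became 208 with no filter on low counts, 535 with DESeq2, 685 with limma-voom and 54 with limma on the authors' normalized values, and ran from 26 (without CDH11+/+ replicate 4) to 1004 (without CDH11+/+ replicate 1) when a library was left out. The count of nuclear genes of the lists, 0, became 1 with no filter, 1 with DESeq2 and 4 with limma-voom, and ran from 0 to 22 when a library was left out. The fitted log2 difference turned positive with library size alone for mt-Nd4l (0.021) and mt-Nd5 (0.02), and with limma on the authors' values for mt-Nd4l (0.025) and Polrmt (0.30). With single libraries left out it ran from -0.15 to 0.033 for mt-Co1, -0.15 to 0.045 for mt-Atp6, -0.15 to 0.019 for mt-Co3, -0.17 to 0.076 for mt-Nd3, -0.13 to 0.12 for mt-Nd4l, -0.18 to 0.014 for mt-Nd4, -0.14 to 0.074 for mt-Nd5 and -0.19 to 0.025 for mt-Cytb. No paired analysis was possible because the labels carry no replicate numbers. The positive values arose without CDH11+/+ replicate 2 or CDH11-/- replicate 1, and for mt-Nd4l also without CDH11+/+ replicate 3 or CDH11-/- replicate 3. The rule by which reads that match both a gene and its copy were counted is not stated in the sources used here. This limits the levels of at least 7 genes.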
